A study of Danio rerio with 12 samples.

Results

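The effect of 25% dietary maize on liver transcripts of male zebrafish was examined in 6 male liver pools of the 12 pools in the microarray experiment. The male pools were chosen by their labels, which name 3 pools fed 25% maize (replicates 1, 2 and 3) and 3 fed 0% maize (replicates 1, 3 and 4). All fish were adults of an AB wild type line and received their diet, supplemented with newly hatched Artemia, for 28 days. In the experimental diets maize replaced wheat, so that the 0% maize diet held wheat in the place of the maize. Livers were pooled per sex within a replicate, and males and females of 1 diet and replicate number came from the same tank. The labels give 4 biological replicates per diet, of which 3 per sex are named on the arrays. Pancreatic tissue of the zebrafish is intermingled with the liver, so that a pool holds RNA of both. In such bulk samples, fewer cells of a type and less RNA per cell cannot be told apart.

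The liver of a fish takes up the products of digestion, stores glucose as glycogen, converts surplus carbohydrate into fatty acids, and makes glucose from amino acids and other precursors when the diet supplies little. It also produces most plasma proteins, which demands ribosomes, translation factors, chaperones and mitochondria that import nearly all of their proteins from the cytosol. Immediate-early transcription factors and growth arrest genes respond within a short time to feeding state, hormones and cell stress.

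Each of the 12 two-colour arrays compared 1 pool labelled with Cy5 and 1 labelled with Cy3, in a closed loop in which every pool occurred once with each dye. Male pools were present on 11 arrays, of which 10 held a female pool beside the male one. The male pools of the diets met directly on only 1 array, that of replicate 3 on 25% maize against replicate 1 on 0% maize. This array had a weight of 0.58 in the estimate of the male diet effect, and the next weights were -0.42 for the array of 2 female pools and -0.34 for each of its neighbours in the loop. The deposited values are log ratios, read here as log2 of Cy5 over Cy3. This direction is called likely, since all 470 values of the 47 vitellogenin probes (proteins of egg yolk that the female liver makes) pointed the way it requires on the arrays of both sexes. Array medians lay between -0.05 and 0.04. A ratio gives no absolute level, so that levels are given relative to the mean of the 12 pools, on the log2 scale, and no level is set against that of another gene. With 12 arrays in all, precision is limited for each value given.

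In male livers, 2 of 6684 genes differed between the diets at an adjusted p under 0.05 from limma, which is 0.0299% of the genes tested. The growth arrest gene gadd45ga was upregulated and the mitochondrial import gene timm10 was downregulated on 25% maize. At an adjusted p under 0.1 there were 15 genes with higher levels (0.224%) and 52 with lower levels (0.778%) on 25% maize. An unadjusted p under 0.05 was found for 262 genes with higher levels (3.92%) and for 463 with lower levels (6.93%). The levels of the 3 pools per diet did not overlap for 528 genes that were higher (7.90%) and 706 that were lower (10.6%) on 25% maize. The male pools of 1 diet lie on the same side of the loop. An error of the direct array of male pools or of the array of 2 female pools therefore shifts them largely together. The 3 levels of a diet are thus not independent, and their SD and lack of overlap leave this error out. The median log2 change over all genes was -0.0014, with a median standard error of 0.16 for a single gene. Of the 12275 probes tested singly, 6 passed (0.0489%), 1 of them higher and 5 lower on 25% maize. These were a probe of coq8aa (log2 change 1.01), timm10 (-1.37), gldc (-0.78) and 3 probes with no gene symbol (-1.33, -1.46 and -3.32). No gene passed without the direct array of male pools. In that fit 259 genes had an unadjusted p under 0.05, against 725 (10.8%) with all arrays. The 259 are a smaller share of the 6684 genes than the 0.05 expected with no diet effect at all. No gene passed without the pools of replicate 1 or 3 of males on either diet, or of replicate 2 or 3 of females on 25% maize. Leaving out a pool drops the 2 arrays that hold it. The direct array thus also falls out with male replicate 1 on 0% maize or male replicate 3 on 25% maize. Likewise, the array of 2 female pools falls out with female replicate 1 on 0% maize or female replicate 4 on 25% maize. Without male replicate 1 on 0% maize 232 genes had an unadjusted p under 0.05, and without male replicate 3 on 25% maize 284 genes. Both counts are also a smaller share than 0.05. The other fits without 1 pool gave 381 to 906 such genes.

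The level of gadd45ga, a growth arrest and DNA damage inducible gene that binds stress kinases, was -0.05, -0.02 and -0.15 in replicates 1, 3 and 4 on 0% maize and 1.23, 1.14 and 1.29 in replicates 1, 2 and 3 on 25% maize. All 3 pools on 25% maize thus lay above all 3 on 0% maize, at a mean of 1.22 ± 0.08 against -0.07 ± 0.07 (SD, n = 3 pools each). The log2 change was 1.298 (standard error, SE, 0.17, adjusted p = 0.0302), which is a fold of 2.46. Its 2 probes had log2 changes of 0.76 and 1.83, and neither passed singly. In females the log2 change was 0.71 (adjusted p = 0.0694). The call was lost without the male 0% maize pool of replicate 1 (adjusted p = 0.948) or 3 (0.117), and without the male 25% maize pool of replicate 1 (0.0946) or 3 (0.833). It was also lost without the female 0% maize pool of replicate 1 (0.0846) or the female 25% maize pool of replicate 2 (0.115), 3 (0.0703) or 4 (0.0608). Over all of these fits the log2 change lay between 1.12 and 1.53. Without the direct array of male pools the adjusted p was 0.685, without the array of 2 female pools 0.0793, with no dye term 0.418, and with the replicate number as a block 0.0503.

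The gene timm10 encodes a small chaperone that guides carrier proteins across the space between the mitochondrial membranes. Its level was 0.47, 0.40 and 0.33 in replicates 1, 3 and 4 on 0% maize and -1.17, -0.50 and -1.12 in replicates 1, 2 and 3 on 25% maize. The groups did not overlap, and replicate 2 on 25% maize lay nearest to the 0% maize pools. Means were 0.40 ± 0.07 and -0.93 ± 0.37 (SD, n = 3 pools each). The log2 change was -1.37 (SE 0.18, adjusted p = 0.0302), a fold of 2.59 downwards, measured by 1 probe. In females it was -0.26 (adjusted p = 0.553), and the difference of -1.11 between the sexes did not pass (SE 0.29, adjusted p = 0.254). The call was lost without the male 0% maize pool of replicate 1 (adjusted p = 0.864), 3 (0.117) or 4 (0.246), and without the male 25% maize pool of replicate 1 (0.0659) or 3 (0.434). It was lost as well without the female 0% maize pool of replicate 1 (0.159) or the female 25% maize pool of replicate 2 (0.115), 3 (0.0775) or 4 (0.301). The log2 change then lay between -1.53 and -1.34 over all pools left out. Without the direct array of male pools the adjusted p was 0.563, without the array of 2 female pools 0.14, with no dye term 0.0549, and with the replicate number as a block 0.0503. A fit on the 6 male pools alone gave 0.103.

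**Figure D1:**
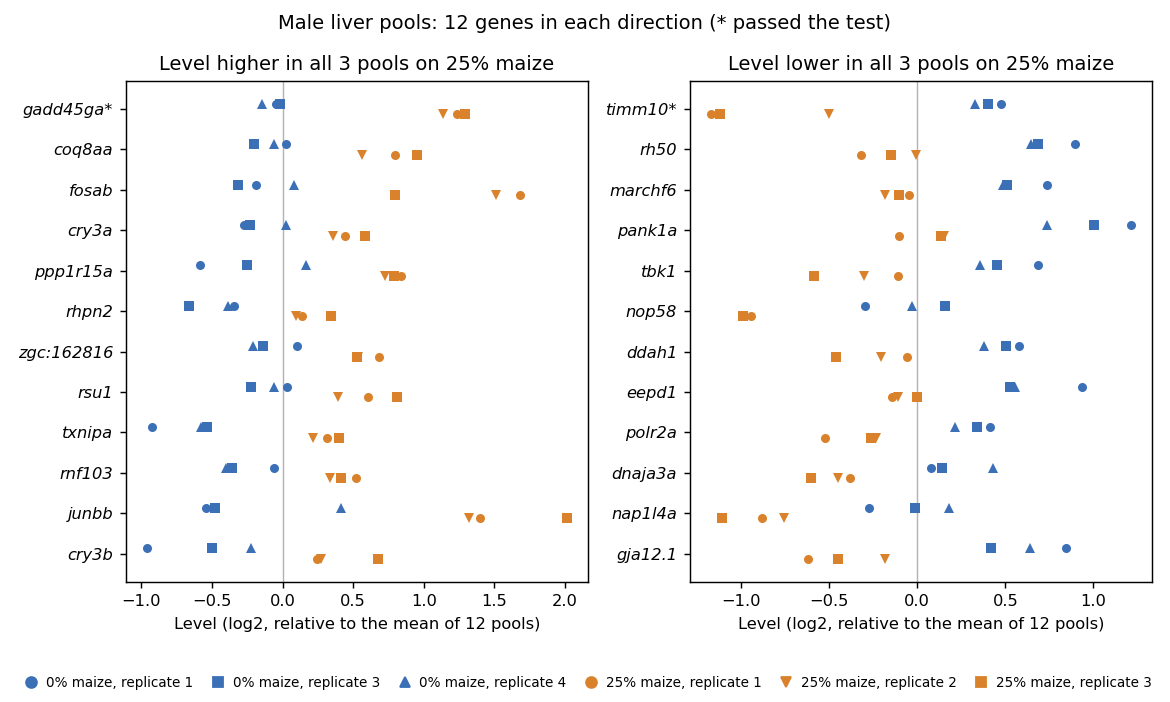
Levels of 24 genes in the 6 male liver pools (x axis, log2 relative to the mean of the 12 pools), with 0% maize in blue and 25% maize in orange and 1 symbol per replicate number. The left panel holds the 12 genes with the smallest p among those higher in all 3 pools on 25% maize and the right panel the 12 among those lower. Only gadd45ga and timm10, marked with an asterisk, passed the test.

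After gadd45ga, the genes with the smallest p among those with higher levels on 25% maize were coq8aa, fosab, cry3a, ppp1r15a, rhpn2, zgc:162816, rsu1, txnipa, rnf103, junbb and cry3b. None of these 11 passed, with adjusted p from 0.0551 for coq8aa to 0.0849 for junbb and cry3b, and they were chosen so that their pools did not overlap. The immediate-early transcription factor fosab was at -0.19, -0.31 and 0.08 on 0% maize (replicates 1, 3 and 4) and at 1.68, 1.51 and 0.79 on 25% maize (replicates 1, 2 and 3). Its log2 change was 1.44 (SE 0.22, adjusted p = 0.0582). Another such factor, junbb, was at -0.54, -0.48 and 0.42 on 0% maize and at 1.40, 1.32 and 2.02 on 25% maize, a log2 change of 1.96 (SE 0.41). Replicate 4 on 0% maize had the highest level of its group for both factors. For coq8aa, which takes part in the synthesis of coenzyme Q in mitochondria, levels were 0.03, -0.20 and -0.06 on 0% maize and 0.80, 0.56 and 0.95 on 25% maize, a log2 change of 0.87 (SE 0.13). The gene ppp1r15a encodes the subunit that directs protein phosphatase 1 to eIF2 alpha, and it had a log2 change of 1.09 (SE 0.20). For txnipa, a regulator of glucose uptake, the log2 change was 1.02 (SE 0.21, adjusted p = 0.0844). Its value in females was 1.28, which passed there (adjusted p = 0.0255). The remaining genes include rsu1, a Ras suppressor, and rnf103, a ubiquitin ligase of the endoplasmic reticulum, both with a log2 change of 0.68.

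The genes with the smallest p among those with lower levels on 25% maize were, after timm10, rh50, marchf6, pank1a, tbk1, nop58, ddah1, eepd1, polr2a, dnaja3a, nap1l4a and gja12.1. All 11 had non-overlapping pools by choice and none passed, with adjusted p from 0.0551 for rh50 to 0.071. The level of rh50, a member of the Rh family of ammonium transporters, was 0.89, 0.68 and 0.64 on 0% maize (replicates 1, 3 and 4) and -0.32, -0.01 and -0.15 on 25% maize (replicates 1, 2 and 3), a log2 change of -0.92 (SE 0.14). For pank1a, a pantothenate kinase that starts coenzyme A synthesis, levels were 1.22, 1.00 and 0.73 on 0% maize and -0.11, 0.15 and 0.13 on 25% maize, a log2 change of -0.94 (SE 0.16). Both genes were highest in replicate 1 on 0% maize, a pool of the direct array. The nucleolar protein gene nop58, whose product is a core part of box C/D ribonucleoproteins, was at -0.29, 0.16 and -0.03 on 0% maize and at -0.94, -0.99 and -0.99 on 25% maize, a log2 change of -0.92 (SE 0.15). The connexin gja12.1 had a log2 change of -1.05 (SE 0.19), and polr2a, the largest subunit of RNA polymerase II, had one of -0.67 (SE 0.12). The values were -0.72 for marchf6, a ubiquitin ligase of the endoplasmic reticulum, -0.76 for ddah1, which degrades asymmetric dimethylarginine, -0.69 for the mitochondrial chaperone dnaja3a and -0.85 for the histone chaperone nap1l4a.

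To describe pathways, 33 gene lists with 1260 different measured genes were counted in males. Of these lists, 1 held a gene that passed upwards (gadd45ga, among regulators of stress and fasting) and 1 held a gene that passed downwards (timm10, in mitochondrial protein import). The median of a list was below 0 for 28 lists and above 0 for 5, beside a median of -0.0014 over all genes. The lists with the lowest medians were those of the fatty acid binding proteins, gluconeogenesis, mitochondrial protein import and ribosome biogenesis. The highest were those of cell cycle and proteasome. The sign of the median was kept under every alternative processing for 18 of the 33 lists. Counts of list members at an unadjusted p under 0.05 are given beside 3.92% of all genes higher and 6.93% lower on 25% maize. Lists and members were chosen with earlier results of these data known. A share above that of all genes is therefore no test of a list.

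**Figure D2:**
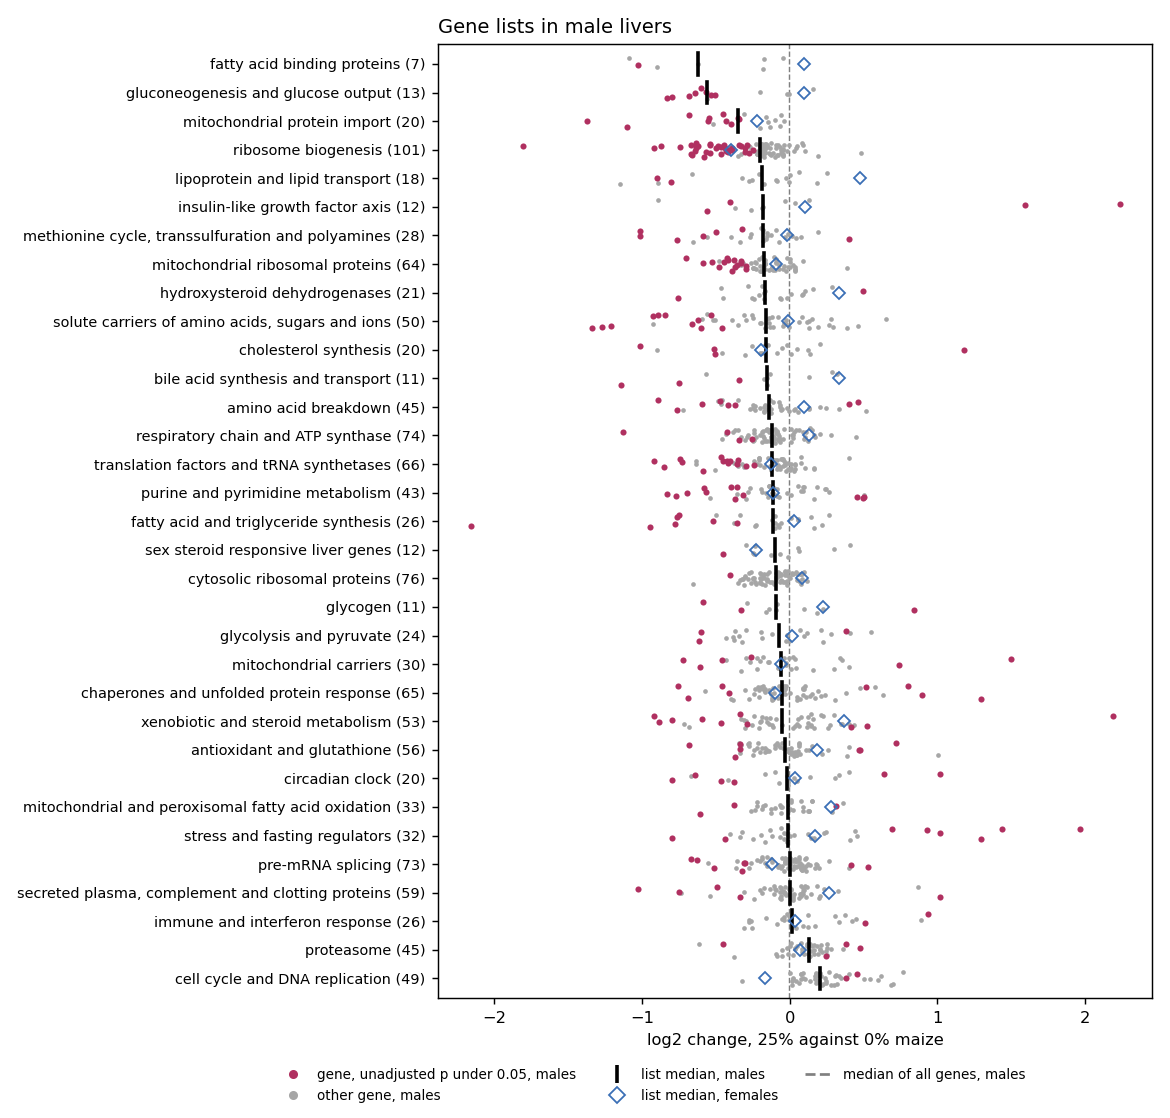
The log2 change on 25% against 0% maize in male livers (x axis) of each gene in the 33 lists (y axis, number of measured genes in parentheses), in red where the unadjusted p was under 0.05. Black bars are list medians in males, blue diamonds list medians in females, and the dashed line is the male median of all genes, -0.0014.

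Mitochondrial protein import is carried out by translocases of the outer membrane (tomm genes) and inner membrane (timm genes) and by the chaperones between them. All 20 measured genes of this list had a negative log2 change in males, from -1.37 for timm10 to -0.04 for dnajc15, with a median of -0.35. Besides timm10, no gene passed. An unadjusted p under 0.05 with a lower level was found for 10 of the 20 genes, beside 6.93% of all genes. The pools did not overlap for 9 of them (45.0%), beside 10.6% of all genes. The gene chchd4a, whose product oxidises imported proteins of the intermembrane space, was at 0.30, 0.15 and -0.16 on 0% maize (replicates 1, 3 and 4) and at -1.22, -0.80 and -1.13 on 25% maize (replicates 1, 2 and 3). Its log2 change was -1.10 (SE 0.24, adjusted p = 0.0905). For timm23a, the channel of the inner membrane, the log2 change was -0.54 (SE 0.11, adjusted p = 0.071), and for timm17a, its partner, it was -0.68 (SE 0.22, adjusted p = 0.262). The receptor gene tomm20a had a log2 change of -0.55, while tomm70a, tomm5 and tomm40l lay between -0.10 and -0.06. Averaged over the list, levels were 0.07, 0.05 and -0.10 on 0% maize and -0.49, -0.25 and -0.44 on 25% maize. In females the median was -0.22. The male median was -0.15 without the direct array of male pools and lay between -0.44 and -0.14 when 1 pool was left out.

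Gluconeogenesis and the release of glucose from the liver were represented by 13 genes, of which 12 had a negative log2 change in males and none passed. The median was -0.56. With an unadjusted p under 0.05, 8 genes (61.5%, beside 6.93% of all genes) were lower on 25% maize and 0 were higher. The pools of 8 genes did not overlap (61.5%, beside 10.6% of all genes), all lower on 25% maize. The aspartate aminotransferase got2b, of mitochondria, was at 0.26, -0.003 and 0.28 on 0% maize (replicates 1, 3 and 4) and at -0.60, -0.47 and -0.74 on 25% maize (replicates 1, 2 and 3), a log2 change of -0.79 (SE 0.17, adjusted p = 0.0867). Its cytosolic counterpart got1 was at 0.99, 1.14 and 0.87 on 0% maize and at 0.40, 0.30 and -0.06 on 25% maize, a log2 change of -0.83 (SE 0.20, adjusted p = 0.122). All 3 pools on 25% maize thus lay below those on 0% maize for both enzymes. The alanine aminotransferase gpt had a log2 change of -0.64 (adjusted p = 0.124), and slc37a4a, the carrier that brings glucose 6-phosphate to its phosphatase, had one of -0.60 (adjusted p = 0.186). Values were -0.56 for the mitochondrial phosphoenolpyruvate carboxykinase pck2, -0.50 for the fructose bisphosphatase fbp1b and -0.54 for the glucose transporter slc2a2. The cytosolic pck1 was at -0.01 and g6pc1a.2, a glucose 6-phosphatase, at 0.16. In females the list had a median of 0.10, and the median of the sex difference was -0.57. For the sex difference, 4 of the 13 genes had an unadjusted p under 0.05, beside 8.95% of all genes, and none passed the threshold. The male median was -0.32 without the direct array and -0.33 without male replicate 1 on 0% maize or male replicate 3 on 25% maize. The hepatocyte markers, which were measured beside these liver enzymes, had a median of -0.10, with 14 of 17 negative. Their mean level ranged from 0.61 to 0.93 on 0% maize and from 0.64 to 0.71 on 25% maize. The intestine markers had a median of -0.56 in males, with 13 of 14 negative, and of 0.78 in females. Their mean level in males ranged from 0.43 to 1.32 on 0% maize and from 0.02 to 0.79 on 25% maize. The part of hepatocytes and of intestine in this result was not tested.

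**Figure D3:**
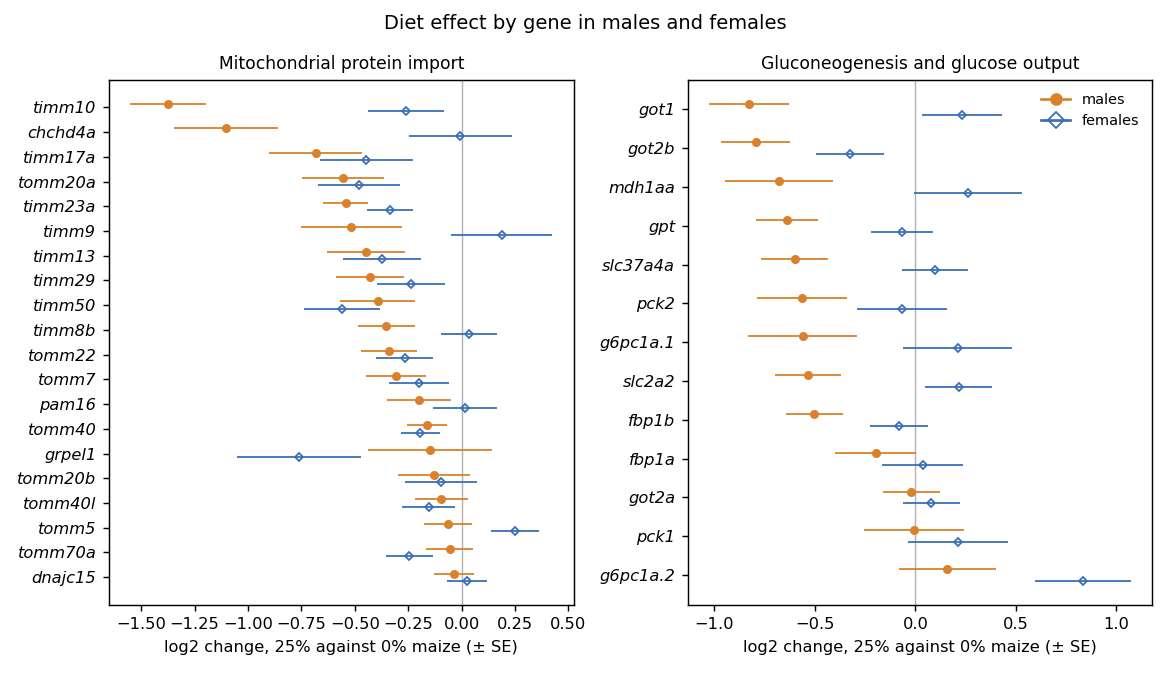
The log2 change on 25% against 0% maize (x axis, points with standard error) of the genes of mitochondrial protein import (left) and of gluconeogenesis and glucose output (right), in males (orange circles) and females (blue diamonds). All 20 import genes and 12 of the 13 genes of glucose output lay below 0 in males.

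Other genes of carbohydrate metabolism had male values on both sides of 0, and none passed. Of 24 genes of glycolysis and pyruvate metabolism, 1 was higher (4.17%, beside 3.92% of all genes) and 2 were lower (8.33%, beside 6.93%) at an unadjusted p under 0.05. The median was -0.07 and lay between -0.16 and -0.01 when 1 pool was left out. The phosphoglycerate mutase pgam1a had a log2 change of -0.61, gapdh one of -0.60 and the pyruvate kinase pkma one of 0.38. Of 11 glycogen genes, ppp1r3ca, which directs protein phosphatase 1 to glycogen, was at -0.04, -0.30 and 0.32 on 0% maize and at 0.69, 0.53 and 1.09 on 25% maize, with no overlap between the diets. Its log2 change was 0.84 (SE 0.27, adjusted p = 0.25). The liver glycogen synthase gys2 had a log2 change of -0.58 (adjusted p = 0.447), and the list had a median of -0.09 that turned to 0.02 without the direct array of male pools, and to at most 0.03 without male replicate 1 on 0% maize or male replicate 3 on 25% maize.

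Ribosome biogenesis, in which ribosomal RNA is transcribed, modified and assembled in the nucleolus, was measured by 101 genes. Of these, 93 had a negative log2 change in males, the median was -0.20, and none passed. At an unadjusted p under 0.05, 35 genes (34.7%, beside 6.93% of all genes) were lower and 0 higher on 25% maize, and 39 genes (38.6%, beside 10.6%) were lower in all 3 pools. Besides nop58, rrp12 had a log2 change of -0.67 (SE 0.13, adjusted p = 0.071), the GTPase gnl2 one of -0.58 (SE 0.12, adjusted p = 0.0737) and nop10, a part of box H/ACA ribonucleoproteins, one of -0.54 (SE 0.11, adjusted p = 0.0849). The levels of nop10 were -0.19, -0.22 and -0.16 on 0% maize and -0.77, -0.72 and -0.68 on 25% maize. The pools of a diet thus lay close together, but their levels are not independent. The 2 probes of nop10 had log2 changes of -0.77 and -0.30. In females the median of the list was -0.40, further below 0 than in males. The male median lay between -0.26 and -0.17 over all alternatives.

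Among the 64 mitochondrial ribosomal proteins, 55 had a negative log2 change, the median was -0.18, and 15 (23.4%, beside 6.93% of all genes) were lower at an unadjusted p under 0.05 against 0 higher. Their median was -0.11 without the direct array of male pools, or without male replicate 1 on 0% maize or male replicate 3 on 25% maize. The gene mrpl54 was at 0.10, -0.06 and -0.16 on 0% maize and at -0.89, -0.65 and -0.75 on 25% maize, a log2 change of -0.70 (SE 0.14, adjusted p = 0.071). For mrps11, mrpl15 and mrpl12 the log2 change was -0.48, -0.42 and -0.59. Of 66 translation factors and tRNA synthetases, 53 were negative, the median was -0.12, and 14 (21.2%, beside 6.93% of all genes) were lower at an unadjusted p under 0.05. They include the methionyl-tRNA synthetase mars1 (log2 change -0.73, adjusted p = 0.155), the cap-binding factor eif4eb (-0.91, adjusted p = 0.18), eif3jb (-0.35) and eif4g1a (-0.35). The 4 probes of eif4g1a lay between -0.60 and 0.03. The 76 cytosolic ribosomal proteins had a median of -0.09, with 1 gene (1.32%, beside 6.93% of all genes), rps9, lower at an unadjusted p under 0.05 (log2 change -0.40). Their median was above 0, up to 0.06, after scaling of the arrays to a common spread and without female replicate 1 on 0% maize, female replicate 4 on 25% maize or male replicate 1 on 25% maize. Of the 74 genes of the respiratory chain and ATP synthase, 54 were negative and 4 (5.41%) were lower at an unadjusted p under 0.05, a share below the 6.93% of all genes. Their median was -0.12, and -0.04 without female replicate 1 on 0% maize. The cytochrome c gene cycsb had the largest log2 change of these 4, at -1.12 (SE 0.30, adjusted p = 0.171). None of the genes in these 4 lists passed.

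The 26 genes of fatty acid and triglyceride synthesis included 7 that were lower (26.9%, beside 6.93% of all genes) and 0 that were higher at an unadjusted p under 0.05, with none past the threshold. The median was -0.11, and it reached -0.22 without the direct array of male pools and -0.21 without a single pool. The acetyl-CoA carboxylase acaca, which starts fatty acid synthesis, was at 1.85, 1.74 and 1.60 on 0% maize (replicates 1, 3 and 4) and at -0.80, 0.63 and -0.80 on 25% maize (replicates 1, 2 and 3). Replicate 2 on 25% maize lay between the others, and the groups did not overlap. The log2 change was -2.16 (SE 0.40, adjusted p = 0.071) in males and -1.31 (adjusted p = 0.143) in females. For mogat3a, a monoacylglycerol acyltransferase, the log2 change was -0.75 (SE 0.15, adjusted p = 0.0789). It was -0.78 for the malic enzyme me1, a source of NADPH (adjusted p = 0.175), and -0.52 for the acyl-CoA synthetase acsl1b (adjusted p = 0.195). On the direct array of male pools, less the dye effect, mogat3a was at -1.05, me1 at -0.25 and acsl1b at -0.45. Of 20 genes of cholesterol synthesis, hmgcra, the rate-limiting reductase, had a log2 change of -1.01 (SE 0.37, adjusted p = 0.336), sc5d and ebp had one of -0.51 each, and the sterol carrier stard4 had one of 1.18. Levels of stard4 were 0.60, 2.36 and 0.36 on 25% maize, where replicate 2 was the highest. The median of this list was -0.16 and was above 0, at 0.01, only without female replicate 4 on 25% maize.

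Bile acid genes numbered 11, with 3 lower (27.3%, beside 6.93% of all genes) and 0 higher at an unadjusted p under 0.05 and none past the threshold. The median was -0.16, and it was -0.26 without the direct array of male pools and -0.05 with the replicate number as a block. The sterol 12-alpha-hydroxylase cyp8b1.1, which sets the composition of bile salts, was at 0.94, 0.99 and 1.28 on 0% maize and at 0.47, 0.41 and 0.17 on 25% maize. Its log2 change was -0.75 (SE 0.15, adjusted p = 0.071). The bile salt exporter subunit slc51a was at 1.22, 0.89 and 0.92 on 0% maize and at -0.36, 0.43 and -0.26 on 25% maize, a log2 change of -1.14 (SE 0.24, adjusted p = 0.0849). Neither of these genes overlapped between the diets. In females cyp8b1.1 had a log2 change of 0.41 and slc51a one of 0.08. The intestine markers, negative for 13 of 14 genes in males, were at a mean level of 0.43 to 1.32 on 0% maize and of 0.02 to 0.79 on 25% maize, and their part in these values was not tested.

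All 7 fatty acid binding proteins had a negative log2 change, with a median of -0.62. A block for the replicate number gave a median of -0.19, and it lay between -0.75 and -0.14 when 1 pool was left out, nearest to 0 without female replicate 1 on 0% maize. Of these genes 1 (14.3%, beside 6.93% of all genes), fabp7a, had an unadjusted p under 0.05 (log2 change -1.02, adjusted p = 0.366). The liver form fabp10a had a log2 change of -0.17 and the intestinal form fabp2 one of -1.09 (SE 0.71). On the direct array of male pools, less the dye effect, fabp10a was at -0.37 and fabp2 at 0.12. Of 18 genes of lipoproteins and lipid transport, 14 were negative, with log2 changes of -0.81 for apoa2 (adjusted p = 0.169) and -0.90 for apoa1a (adjusted p = 0.291), both apolipoproteins of high density particles. On the direct array, less the dye effect, apoa2 was at -0.57 and apoa1a at -0.14. The median of the lipoprotein list was -0.19 in males and 0.47 in females, and the male one was 0.02 without the array of 2 female pools. The intestine markers share fabp2 and fabp6 with the binding proteins, and with the lipoprotein list apoa4a, apoa4b.1 and apoa4b.2. Of these, apoa4a had the lowest log2 change of the lipoprotein list, at -1.15. The intestine markers were negative for 13 of 14 genes, with a median of -0.56. Their mean level ranged from 0.43 to 1.32 on 0% maize and from 0.02 to 0.79 on 25% maize, and their part in these values was not tested. The 33 genes of fatty acid oxidation had a median of -0.01, with 1 higher (3.03%) and 2 lower (6.06%) at an unadjusted p under 0.05, near the shares of all genes. They include the uncoupling protein ucp1 (log2 change -0.61, adjusted p = 0.205) and crata, a carnitine acetyltransferase (0.32, adjusted p = 0.402).

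Genes of amino acid handling had medians below 0 in males, with no gene past the threshold. Of 28 genes of the methionine cycle, transsulfuration and polyamines, 23 were negative (median -0.18). At an unadjusted p under 0.05, 6 were lower (21.4%, beside 6.93% of all genes) and 1 higher (3.57%, beside 3.92%). The cystathionine beta-synthase cbsb was at 0.93, 0.83 and 1.05 on 0% maize and at -0.13, 0.09 and -0.17 on 25% maize. Its log2 change was -1.01 (SE 0.22, adjusted p = 0.0905), and that of its paralog cbsa was -0.50 (SE 0.12, adjusted p = 0.111). For amd1, which supplies the aminopropyl groups of polyamines, the log2 change was -1.01 (SE 0.22, adjusted p = 0.0905). In females cbsb was at -0.97 and amd1 at -0.80. Of 45 genes of amino acid breakdown, 34 were negative and 6 were lower (13.3%, beside 6.93% of all genes) against 2 higher (4.44%, beside 3.92%) at an unadjusted p under 0.05. The median of -0.14 was -0.03 without the direct array of male pools, and it lay between -0.22 (without female replicate 1 on 0% maize) and -0.02 (without male replicate 1 on 0% maize) when 1 pool was left out. Besides ddah1 they include the aminotransferase agxtb (log2 change -0.89, adjusted p = 0.148) and 2 genes of the glycine cleavage system, gcshb (-0.60) and gldc (-0.37, from probes at -0.78 and 0.05). Of 43 genes of purine and pyrimidine metabolism, 9 were lower (20.9%, beside 6.93% of all genes) and 3 higher (6.98%, beside 3.92%) at an unadjusted p under 0.05. The median was -0.11, against -0.05 without the direct array and -0.04 without male replicate 1 on 0% maize. The CTP synthase ctps1a had a log2 change of -0.77 (SE 0.17, adjusted p = 0.0905), the adenosine kinase adkb one of -0.56 and the uridine phosphorylase upp2 one of -0.58. In females ctps1a (-1.16, adjusted p = 0.0166) and adkb (-0.74, adjusted p = 0.0377) passed, and upp2 (-0.55, adjusted p = 0.18) did not.

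Among 50 solute carriers of amino acids, sugars and ions, 37 were negative, with none past the threshold. At an unadjusted p under 0.05, 11 of the 50 were lower, beside 6.93% of all genes, and 0 were higher, beside 3.92%. The median was -0.16, and -0.10 without male replicate 2 on 25% maize. The list shares slc15a1b (log2 change -0.51) with the intestine markers, of which 13 of 14 were negative and whose part in these values was not tested. The magnesium transporter slc41a1 was at 0.87, 0.59 and 0.61 on 0% maize and at -0.53, -0.61 and -0.74 on 25% maize, a log2 change of -1.34 (SE 0.27, adjusted p = 0.071). The phosphate transporter slc20a1b had a log2 change of -0.93, the taurine transporter slc6a6b one of -0.85 and slc16a10, a carrier of aromatic amino acids, one of -0.89, with adjusted p between 0.071 and 0.0849. The 2 probes of slc20a1b lay apart, at -1.615 and -0.24, as did those of slc16a10, at -1.43 and -0.35. For slc6a6b, levels on 25% maize were 0.01, -0.36 and -0.55, all below the 0.66, 0.58 and 0.39 on 0% maize. Of 30 mitochondrial carriers, 2 were higher (6.67%, beside 3.92% of all genes) and 4 lower (13.3%, beside 6.93%) at an unadjusted p under 0.05. The gene slc25a32a, of a carrier that brings folate or FAD into mitochondria, was at -1.67, -0.27 and 0.19 on 0% maize. On 25% maize it was at 1.18, 0.91 and 0.64, a log2 change of 1.50 (SE 0.41, adjusted p = 0.18). In females its log2 change was 2.64, which passed (adjusted p = 0.0171). The median of this list was -0.06, against 0.01 without the direct array and at most 0.02 without male replicate 1 on 0% maize or male replicate 3 on 25% maize.

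In the growth axis, where growth hormone acts on the liver to release insulin-like growth factor 1 and binding proteins hold the hormone in the blood, none of 12 genes passed. The receptor gene ghrb had a log2 change of -0.56 (SE 0.21, adjusted p = 0.358). The hormone gene igf1 was at 0.51, 0.45 and 0.42 on 0% maize and at 0.13, -0.08 and 0.11 on 25% maize, a log2 change of -0.40 (SE 0.14, adjusted p = 0.297). The binding protein igfbp1b, which is made in fasted or stressed liver, was at -1.60, -1.40 and -0.69 on 0% maize and at 0.55, 0.62 and 1.84 on 25% maize. Its log2 change of 2.24 had an SE of 0.68 (adjusted p = 0.228), and the pools did not overlap. Its paralog igfbp1a was at -1.24, -0.38 and 0.95 on 0% maize and at 1.23, 1.07 and 1.33 on 25% maize, a log2 change of 1.59 (SE 0.53, adjusted p = 0.281). The female values were 1.74 for igfbp1b, 0.90 for igfbp1a and -0.42 for igf1. The median of the list was -0.18, with 2 genes higher (16.7%, beside 3.92% of all genes) and 2 lower (16.7%, beside 6.93%) at an unadjusted p under 0.05. It was -0.10 without the direct array of male pools and -0.09 without male replicate 3 on 25% maize.

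The 32 regulators of stress and fasting had values on both sides of 0. At an unadjusted p under 0.05, 6 were higher (18.8%, beside 3.92% of all genes) and 2 lower (6.25%, beside 6.93%). Their median was -0.01, and it lay between -0.16 and 0.38 over the alternatives, on both sides of 0. The genes that were higher are gadd45ga, which passed, and fosab, txnipa, junbb, btg2 and ndrg1a, which did not. The antiproliferation gene btg2 had a log2 change of 0.93 (adjusted p = 0.263), and ndrg1a one of 0.69 (adjusted p = 0.445). The atf3, atf4a and trib3 genes of the amino acid response lay at -0.04, -0.19 and -0.04. Of 20 clock genes, 2 were higher (10.0%, beside 3.92% of all genes) and 4 lower (20.0%, beside 6.93%) at an unadjusted p under 0.05. None passed the threshold, and the median was -0.02 (-0.09 to 0.03 over the alternatives). The cryptochromes cry3a (log2 change 0.64, SE 0.11, adjusted p = 0.071) and cry3b (1.02, SE 0.22, adjusted p = 0.0849) were the 2 with higher levels. Over the fits that left out 1 pool the log2 change of cry3a lay between 0.38 and 0.85 and that of cry3b between 0.23 and 1.70, lowest without male replicate 1 on 0% maize or male replicate 3 on 25% maize and highest without female replicate 1 on 0% maize or female replicate 4 on 25% maize. The levels of cry3a were -0.27, -0.23 and 0.02 on 0% maize and 0.44, 0.36 and 0.59 on 25% maize. The repressors bhlhe41 and per1b had log2 changes of -0.64 (adjusted p = 0.191) and -0.80 (adjusted p = 0.195). The time of day at which each pool was taken was not analysed here.

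Chaperones and genes of the unfolded protein response (65 genes) included 4 higher (6.15%) and 4 lower (6.15%) at an unadjusted p under 0.05, beside 3.92% and 6.93% of all genes. Their median was -0.05 and lay between -0.10 and -0.01 when 1 pool was left out. The endoplasmic reticulum chaperones hsp90b1 (log2 change 1.29, SE 0.35, adjusted p = 0.173) and calr3a (0.90, SE 0.21, adjusted p = 0.118) had higher levels. The chaperones hyou1 (-0.76, adjusted p = 0.186, with 2 probes at -1.16 and -0.35) and dnaja3a had lower ones. For hsp90b1, levels were -1.50, -0.75 and -1.14 on 0% maize and -0.37, 0.62 and 0.14 on 25% maize. Of 45 proteasome genes, 36 had a positive log2 change, and the median was 0.13. At an unadjusted p under 0.05, 3 were higher (psmb2, psmd13 and psmd1, 6.67%, beside 3.92% of all genes) and 1 lower (psme3, 2.22%, beside 6.93%). The median was 0.06 without the direct array of male pools and lay between 0.06 and 0.23 when 1 pool was left out. The 2 probes of psmb2 lay apart, at 0.13 and 0.82, as did those of psmd13, at 0.07 and 0.70. Those of psmd1 were at 0.14 and 0.36. The 73 splicing genes had a median of 0.00 (-0.05 to 0.11 over the alternatives). At an unadjusted p under 0.05, 2 were higher (2.74%, beside 3.92% of all genes) and 6 lower (8.22%, beside 6.93%), shares near those of all genes. Among the lower ones was hnrnpa0b at -0.67 (adjusted p = 0.118). None of the genes of these 3 lists passed.

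Of 49 genes of the cell cycle and DNA replication, 47 had a positive log2 change in males (median 0.21), while none passed. The median was 0.10 without the direct array of male pools, and it lay between 0.10 (without male replicate 1 on 0% maize) and 0.47 (without female replicate 1 on 0% maize) when 1 pool was left out. At an unadjusted p under 0.05, 2 genes (4.08%) were higher, beside 3.92% of all genes, and the pools of 8 genes (16.3%) did not overlap, beside 7.90%. The 2 genes were cdkn1bb, an inhibitor of cyclin-dependent kinases (log2 change 0.46, adjusted p = 0.203), and rfc3, a clamp loader subunit (0.38, adjusted p = 0.375). Cyclin A2, ccna2, was at -1.48, -1.63 and -1.62 on 0% maize and at -1.33, -0.73 and -0.82 on 25% maize, a log2 change of 0.70 (SE 0.32, adjusted p = 0.466). Averaged over the list, levels were -0.89, -0.77 and -0.77 on 0% maize and -0.82, -0.51 and -0.62 on 25% maize, so that replicate 1 on 25% maize lay among the 0% maize pools. The ovary and oocyte markers were positive for 14 of 15 genes in males, with a median of 0.32, against -0.59 in females. Their mean level ranged from -2.03 to -1.69 on 0% maize and from -1.92 to -1.16 on 25% maize. The members with the smallest p, zp2.3, zp2.5, h1m and org, had fitted log2 changes of 0.79, 0.69, 0.48 and 0.55. On the direct array of male pools, less the dye effect, they were at -0.08, -0.22, -0.17 and 0.30. Replicate 2 on 25% maize was the highest male pool for the ovary and the cell cycle lists. The testis markers, 3 genes, ranged from -0.51 to 0.67 and from -0.47 to 1.25. The part of gonad tissue in the cell cycle values was not tested. In females the list of cell cycle genes had a median of -0.16.

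Among the remaining lists none of the genes passed in males. Of 53 genes of xenobiotic and steroid metabolism, 3 were higher (5.66%, beside 3.92% of all genes) and 7 lower (13.2%, beside 6.93%) at an unadjusted p under 0.05, with a median of -0.05. The vitamin D hydroxylase cyp24a1 was at -1.45, -1.37 and -0.87 on 0% maize and at 0.13, 0.34 and 1.88 on 25% maize, a log2 change of 2.19 (SE 0.74, adjusted p = 0.291). Of 56 antioxidant and glutathione genes, 3 were higher (5.36%) and 4 lower (7.14%), shares near those of all genes (median -0.03). The glutathione transferase gstt1b was at 0.48 and gclc, the first enzyme of glutathione synthesis, at -0.34. In females gstt1b was at 1.23, which passed (adjusted p = 0.0129), and gclc at -0.25. The 21 hydroxysteroid dehydrogenases had a median of -0.17, with dhrs4 at 0.49 and hsd17b3 at -0.76. The female values were 0.99 for dhrs4, which passed (adjusted p = 0.0171), and 0.26 for hsd17b3. The 59 secreted plasma proteins had a median of 0.01, with the fetuin ahsg2 at -0.75 (adjusted p = 0.101) and the retinol binding protein rbp4 at 1.02 (adjusted p = 0.171). Levels of rbp4 were -1.19, -0.71 and -0.32 on 0% maize and 0.06, 0.35 and 0.33 on 25% maize. The 12 sex steroid responsive genes had a median of -0.10, with the oestrogen receptor esr1 at -0.45 (adjusted p = 0.2, with 3 probes between -1.50 and 0.19). The 26 immune genes had a median of 0.02, with socs3a, a feedback inhibitor of cytokine signalling, at 0.94 (adjusted p = 0.287). Among these 6 lists the sign of the median changed under at least 1 alternative for each.

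Whether the diet effect differed between males and females was tested directly, because a call in 1 sex alone does not show a difference. In females 88 of 6684 genes passed (1.32%), but for the difference between the effects 0 genes passed by limma (0%), the smallest adjusted p being 0.107. An unadjusted p under 0.05 was found for 598 genes (8.95%). A fit of limma on the solved levels of the 12 pools gave 23 genes, but it takes these levels as independent, which they are not. The standard error of the difference was larger than that of either effect, with a median of 0.26 beside 0.16. The errors of the male and female estimates were correlated at -0.285, since both rest on the same loop. An error can thus move the male and female estimates in opposite directions, here and in list medians given for both sexes. The smallest p belonged to cyp2k22, a cytochrome P450, with a log2 change of -0.92 in males (SE 0.19, adjusted p = 0.0849) and of 1.32 in females (adjusted p = 0.0166). Its difference was -2.24 (adjusted p = 0.107). In male pools it was at 1.94, 2.19 and 1.55 on 0% maize and at 1.14, 0.98 and 0.84 on 25% maize, without overlap. The kinase tbk1, which acts in antiviral signalling, was at 0.68, 0.45 and 0.36 on 0% maize and at -0.11, -0.30 and -0.59 on 25% maize, with a log2 change of -0.87 in males and 0.58 in females (difference -1.45, adjusted p = 0.123). For gpd1b, a glycerol 3-phosphate dehydrogenase, the log2 change was -0.69 in males and 0.74 in females (difference -1.43, adjusted p = 0.123). The deubiquitinase usp5 had a log2 change of 0.55 in males and -1.35 in females (difference 1.90, adjusted p = 0.123). The other 4 genes had adjusted p of 0.195. Among them the apolipoprotein apobb.1 was at -0.08 in males and 1.09 in females, and slc6a6b at -0.85 and 0.51. The difference for slc6a6b was -1.35 and lay between -2.45 (without female replicate 1 on 0% maize) and -0.25 (without male replicate 1 on 0% maize) when 1 pool was left out. In such fits the difference for tbk1 came as near to 0 as -0.88 and that for apobb.1 as near as -0.72. The succinyl-CoA ligase subunit suclg2 was at -0.48 and 0.74, and rpap3, a co-chaperone of RNA polymerase assembly, at 0.48 and -0.80.

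**Figure D4:**
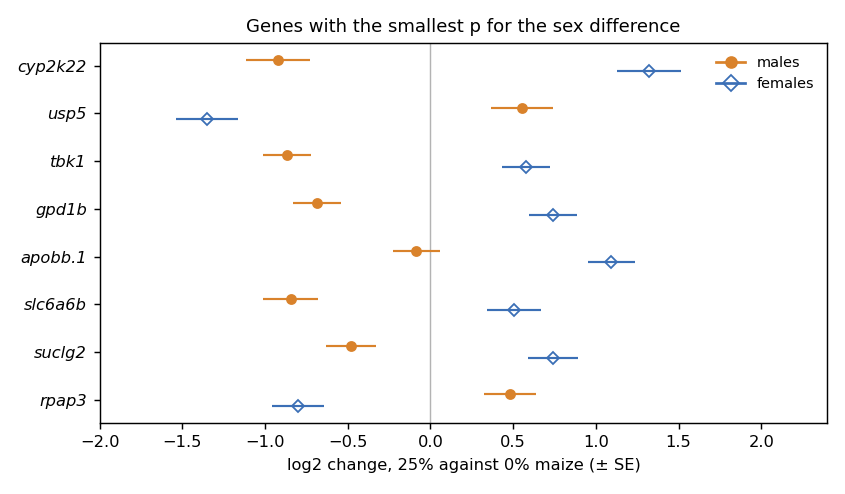
The log2 change on 25% against 0% maize (x axis, points with standard error) in males (orange circles) and females (blue diamonds) for the 8 genes with the smallest p for the sex difference. The male and female estimates of each of the 8 genes lay on opposite sides of 0, that of apobb.1 in males at -0.08, and no difference passed. The 8 genes were chosen by this difference, which favours opposite signs.

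Markers of cell types that a pool can hold were compared among the 6 male pools by the mean level of 10 lists with 109 measured genes, and none of these genes passed. Because a ratio has no zero, none of the markers can be said to be absent. The erythrocyte list was at 0.00, 1.07 and 0.75 on 0% maize (replicates 1, 3 and 4) and at 1.33, 0.47 and 0.98 on 25% maize (replicates 1, 2 and 3), lowest in replicate 1 on 0% maize. All 8 of its genes had a positive log2 change, with hbba2, a beta globin, at 0.78 (adjusted p = 0.402). Endocrine pancreas genes were at 0.62, 0.45 and -0.60 on 0% maize and at 0.51, 0.58 and 1.44 on 25% maize, where replicate 4 was lowest and replicate 3 on 25% maize highest. All 6 genes of this list had a positive log2 change, with a median of 0.57, and of 0.61 in females. The log2 change of ins, which encodes insulin, was 1.12 (SE 1.14, adjusted p = 0.83). Its pools did not overlap, at 0.80, 0.24 and -1.28 on 0% maize and at 1.44, 1.33 and 1.65 on 25% maize. Exocrine pancreas genes were negative for 16 of 19, with a median of -0.24, and their levels overlapped at 0.16 to 1.04 and 0.47 to 0.74. The testis list was high in replicate 3 of both diets, at 0.67 and 1.25, against -0.51 to -0.37 in the other 4 male pools. In the intestine list tm4sf4 had a log2 change of -1.22 (adjusted p = 0.141) and anpepb.1 one of -1.02 (adjusted p = 0.34). The medians were -0.01 for leukocytes (10 genes), -0.15 for bile duct and stellate cells (13 genes) and -0.12 for endothelium (5 genes). How far these differences between pools contribute to the changes of other genes was not tested.

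**Figure D5:**
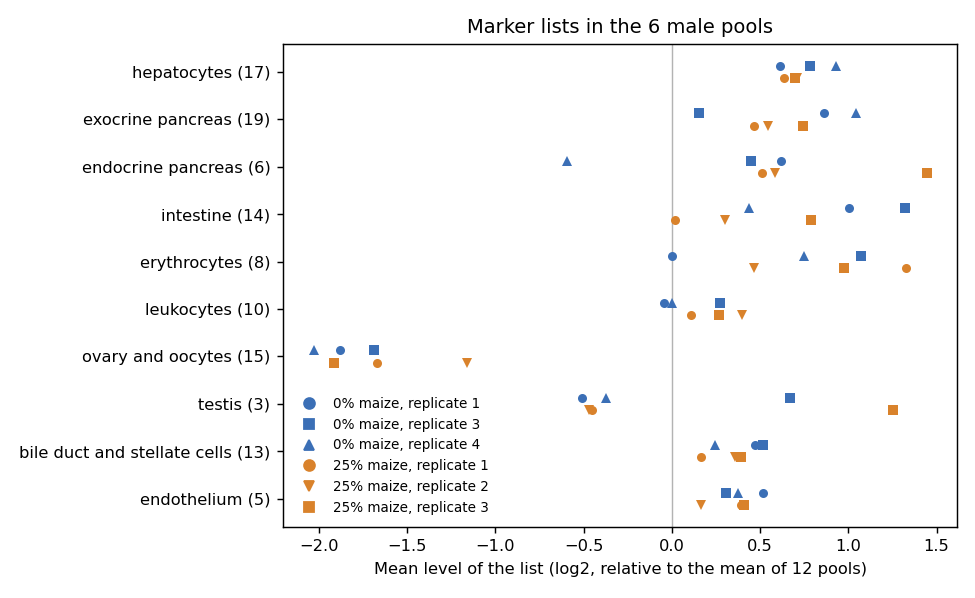
Mean level of each marker list (x axis, log2 relative to the mean of the 12 pools, number of measured genes in parentheses) in the 6 male liver pools, with 0% maize in blue and 25% maize in orange. The testis list separates replicate 3 of both diets from the other 4 pools, and the erythrocyte list is lowest, at 0.00, in replicate 1 on 0% maize.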

How the data were processed

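Liver RNA of 12 pools was amplified, labelled with both dyes and hybridised to 12 two-colour Agilent arrays. Spots were quantified by the authors with GenePix Pro and processed with limma, and the log2 ratio of the dyes was deposited for each probe and array. Base 2 is the convention of limma, whose version, like the log base, direction, background correction, normalization and probe filter, is not given in the sources used here (a supplement that the methods cite for this processing was not used). Of 12275 probes, 10307 had 1 gene symbol, which was updated through RefSeq's GRCz12tu table and gave 6684 genes, each represented by the average of its probes. The genome build of the array is not given in the sources used here, so coordinates are left out, and no sequences were printed because none were at hand.

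Pools, dyes, diets and replicate numbers came from the labels. The model, fitted with limma (version 3.58.1, R 4.3.3), held the 4 combinations of sex and diet and a dye effect. Ratios were first decorrelated for pools that arrays share, at a pool variance of 2.91 times the array error by restricted maximum likelihood over all probes, and 8 residual degrees of freedom were left. Benjamini-Hochberg adjustment ran over all genes at a threshold of 0.05. The p-values measure the spread between pools and arrays, with 1 estimate for both sexes. In males each pool came from a different tank. The model held no tank term, so that a tank shared by a male and a female pool was not taken into account. With a tank variance of 1 times the array error, 2 genes passed in males and 0 for the sex difference. Levels of single pools were solved exactly from the closed loop and contain the direct array of male pools. The fit of the male diet effect across genes was also run on simulated data, whose errors followed the fitted model. In each run 200 of the 6684 genes carried a change. The fit recovered 81.6% of log2 changes of 1 and 19.2% of those of 0.5. The adjusted p depends on how many genes change, so these shares need not hold for the real data, where 2 genes passed. Because the errors were drawn from the model, the simulation cannot check the model on the real data.

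The genes named are the 12 in each direction that passed or, failing that, had the smallest p with non-overlapping pools, the 8 with the smallest p for the sex difference, and up to 4 per list. A few others, among them list extremes, were named after their values were seen. The comparison, the 33 gene lists with their members and the 10 marker lists were chosen with earlier results of these data known. The alternatives concerned the covariance of the pools, the tank, the replicate number, the dye, array scaling and weights, the features tested, the threshold and the omission of single pools and arrays. Figures were drawn with matplotlib 3.10.9.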

Additional observations from a re-analysis of the deposited data

How the results depend on the processing

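The count of 2 genes in males rose to 8 with arrays taken as independent, 45 from solved pool levels, 15 with array weights and 11 without the array of 2 female pools. With 1 row per probe, 6 of 12275 probes passed (0.0489%), a count of probes and not of genes. The gene count was 0 without a dye term and 0 without the direct array of male pools. It was 3 (2 higher and 1 lower, against 1 and 1) with arrays centred on their medians, 0 at an adjusted p under 0.01 and 67 under 0.1. Leaving out 1 pool gave 0 to 11 genes. With arrays scaled to one spread 1625 genes passed. Before scaling, the direct array of male pools had the lowest SD over probes, 0.40. That of the array of 2 female pools was 0.52, and the highest of any array was 1.36. Scaling took the SD over genes of the male change from 0.29 to 0.60. The shift correlated with the difference between females and males across genes (Pearson's r = 0.524, genes not being independent). For the sex difference the count of 0 became 23 from solved pool levels, 1864 with arrays scaled to one spread and 6 without the array of 2 female pools, and 0 to 6 without 1 pool. The fits on solved pool levels leave out the error that these levels share. The replicate numbers were not taken as pairs, since no source ties a number to a batch shared by the diets and not every correlation between deviations of same-numbered pools was above 0.1 (-0.120 and 0.178 in males, 0.214 and 0.266 in females). With the number as a block, 4 genes passed in males and 4 for the sex difference. Of 856 values of named genes under the alternatives, 735 kept their side of the threshold, 95 passed only there, 26 (12 of gadd45ga, 14 of timm10) no longer passed, and none changed sign. These genes were chosen for a small p in the same data, which favours a kept sign. Some alternatives, such as robust moderation, also leave the estimate itself unchanged. List medians changed sign under at least 1 alternative for 15 of the 33 lists, and 122 of 891 such medians moved by more than 1 SD of the pools. The cause of these changes was not tested.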
